A study of Mus musculus with 3 samples.

Results

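Immunoglobulin variable gene segments were examined in RNA-seq of peripheral blood G-MDSCs (granulocytic myeloid-derived suppressor cells). They were taken as every gene whose symbol in GENCODE M21 begins with Ighv, Igkv or Iglv, which gave 265 of the 26655 genes with values. Of these, 134 were heavy chain segments (Ighv), 128 were kappa light chain segments (Igkv) and 3 were lambda light chain segments (Iglv). The choice used names only and no measured value.

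The study set G-MDSCs of normal mice beside those of mice that had carried subcutaneous B16F10 tumors, a transplantable melanoma of C57BL/6 mice, for 2 weeks (2Ws) or 3 weeks (3Ws), to follow the cells as the tumors progressed. All mice were C57BL/6J, 8 to 10 weeks old when bought, and no engineered allele is named. The cells were labelled as positive for CD11b and Gr1 and were separated from blood by an antibody to Ly6G on magnetic columns, so other blood cells could remain. There was 1 library per condition, the number of mice behind each is not stated in the sources used, and no value below therefore has a replicate check. The sample attributes give the tumor times in months, whereas the sample descriptions and the methods give weeks, and the weeks are used. The normal library has the number 1 in its title and 2 in its column of values.

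The library totals, recovered from the FPKM values and not reported by the study, were 17325747 in the normal library, 16549246 at 2Ws and 17075753 at 3Ws. Neutrophil markers were abundant, as the label has it. Ly6g, the surface antigen used for the separation, was at 125, 114 and 190 FPKM (fragments per kilobase of exon and per 1000000 fragments) in the normal, 2Ws and 3Ws libraries, and S100a8, an abundant neutrophil protein, was at 8385, 10195 and 14548 FPKM. The methods name female mice for tumor implantation. In sex-linked genes the 2Ws library had the pattern of female cells, whereas the normal and 3Ws libraries had that of male cells. The 3Ws library thus differed from the sex named for implanted mice. Xist, the RNA of the inactive X chromosome, was at 0.00966, 24.7 and 0 FPKM, and Ddx3y, a gene of the Y chromosome, at 19.9, 0 and 23.1 FPKM. Every difference that involves 2Ws therefore also sets libraries of unlike Xist and Ddx3y beside each other, and this cannot be told apart from tumor time.

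Antibodies are built from paired heavy and light chains, and the part of each chain that meets antigen is encoded by a variable (V) segment. In developing B cells the RAG enzymes join a V segment to D and J segments in the heavy chain locus, or to J segments in the kappa and lambda loci, and the joined exon is then spliced to a constant region. A cell that transcribes a joined V segment is thus a B cell or its secreting progeny, the plasma cell, whereas neutrophils do not rearrange these loci. Each B cell clone uses its own segments, so the set of segments with reads describes how mixed the B cell RNA of a sample is. Most segments have close relatives in the same locus, and this limits what short reads can tell apart.

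To show how alike they are, the last 294 coding bases of Iglv1 and Iglv2, the most read lambda segments, are given (GENCODE M21 transcripts, GRCm38, 5′ to 3′ of the coding strand, each gene on the minus strand of chromosome 16). Iglv1 lies at chr16:19085017-19085500 and Iglv2 at chr16:19260401-19260859. Capitals in Iglv2 mark the bases that differ from Iglv1.
Iglv1: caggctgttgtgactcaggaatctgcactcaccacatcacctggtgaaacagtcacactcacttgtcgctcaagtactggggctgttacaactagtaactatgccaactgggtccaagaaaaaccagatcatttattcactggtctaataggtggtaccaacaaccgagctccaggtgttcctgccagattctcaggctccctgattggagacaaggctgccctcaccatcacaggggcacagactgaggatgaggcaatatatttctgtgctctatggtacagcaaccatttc
Iglv2: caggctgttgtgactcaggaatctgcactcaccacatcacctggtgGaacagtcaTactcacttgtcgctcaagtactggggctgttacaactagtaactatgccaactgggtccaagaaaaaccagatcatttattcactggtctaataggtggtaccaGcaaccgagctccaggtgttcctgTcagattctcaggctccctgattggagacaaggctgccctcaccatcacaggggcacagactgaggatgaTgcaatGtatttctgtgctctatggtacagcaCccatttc
The capitals are 7 bases of this stretch, and the whole coding sequences, of 351 bases in Iglv1 and 348 in Iglv2, are 96.3% identical.

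The next sequences are the 3′ ends of the coding parts of the segments that led the heavy and kappa loci in 1 or more libraries. Ighv1-69, of the same family as Ighv1-64, is added. Capitals mark the codon of the conserved cysteine and the bases after it, which is the end that recombination joins. The genes are Ighv1-26 (chr12:114788372-114788805, minus strand), Ighv1-64 (chr12:115507545-115508031, minus), Ighv1-69 (chr12:115623161-115623595, minus), Igkv1-117 (chr6:68121046-68121827, plus) and Igkv10-96 (chr6:68631963-68632442, minus), all in GRCm38.
Ighv1-26: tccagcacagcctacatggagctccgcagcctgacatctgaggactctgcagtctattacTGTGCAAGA
Ighv1-64: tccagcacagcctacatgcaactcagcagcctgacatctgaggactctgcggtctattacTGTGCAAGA
Ighv1-69: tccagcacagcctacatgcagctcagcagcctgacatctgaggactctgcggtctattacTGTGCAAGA
Igkv1-117: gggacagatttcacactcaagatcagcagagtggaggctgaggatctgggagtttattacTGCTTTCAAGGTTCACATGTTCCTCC
Igkv10-96: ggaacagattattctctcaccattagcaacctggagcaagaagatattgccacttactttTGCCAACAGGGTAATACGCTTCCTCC
The 3 heavy chain ends carry the same 9 bases in capitals and few differences before them. Over all segments, 118 of 265 were at least 95% identical to another segment of their locus, and these held 65.8% of the V reads in the normal library, 64.0% at 2Ws and 63.4% at 3Ws. How reads that matched several places were counted is not given in the sources used, so values of single segments are uncertain where a relative exists, while sums over a locus depend only on reads that were dropped or counted more than once.

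The heavy chain segments span chr12:113572927-116000461 and all lie on the minus strand. Of them, 107 are annotated as functional genes and 27 as pseudogenes. The kappa segments span chr6:67555497-70704177, with 99 functional genes and 29 pseudogenes, and the lambda segments span chr16:19085017-19260859. All 265 segments gave whole read numbers from the FPKM values, so reads are used below. Together they held 4858 reads in the normal library, 6452 at 2Ws and 1837 at 3Ws, which is 280, 390 and 108 RPM (reads per 1000000 of the library total). Segments with at least 1 read numbered 219 in the normal library, 219 at 2Ws and 179 at 3Ws. Of all segments, 167 had reads in every library and 22 had none in any. Of these 22, 16 are pseudogenes.

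V reads were highest at 2Ws and lowest at 3Ws in all 3 loci. Ighv segments summed to 2167 reads (125 RPM) in the normal library, 2689 (162 RPM) at 2Ws and 838 (49.1 RPM) at 3Ws. Igkv segments summed to 1955 reads (113 RPM), 2673 (162 RPM) and 785 (46.0 RPM) in the same order. Iglv segments summed to 736 reads (42.5 RPM), 1090 (65.9 RPM) and 214 (12.5 RPM). The 3 libraries were apart in each locus by more than the counting error of the reads.

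**Figure D1:**
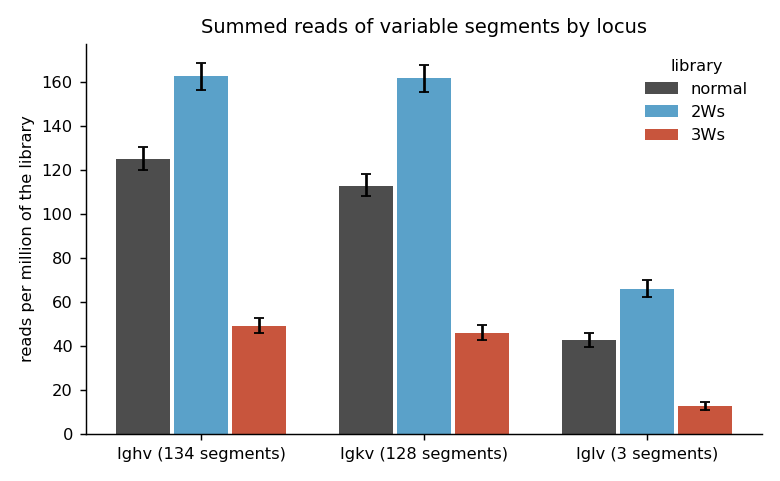
Summed RPM (y axis) of the heavy, kappa and lambda V segments (x axis) in the normal, 2Ws and 3Ws libraries. Bars are values and whiskers are exact 95% binomial intervals of counting error. The 2Ws bar is the highest and the 3Ws bar the lowest in each locus, with Ighv at 125, 162 and 49.1 RPM.

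At 3Ws, RPM were 2.55-fold lower than in the normal library for Ighv (95% interval of counting error 2.35 to 2.76), 2.45-fold lower for Igkv (2.26 to 2.67) and 3.39-fold lower for Iglv (2.91 to 3.97). At 2Ws they were 1.30-fold higher than in the normal library for Ighv (1.23 to 1.38), 1.43-fold higher for Igkv (1.35 to 1.52) and 1.55-fold higher for Iglv (1.41 to 1.70). Set against 2Ws, the 3Ws values were 3.31-fold lower for Ighv, 3.51-fold lower for Igkv and 5.26-fold lower for Iglv. These intervals cover counting error only, not the difference between mice. In bulk samples fewer cells of a type and less RNA per cell cannot be told apart.

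Single segments were counted where they had at least 1 FPKM in 1 of the 2 libraries and where FPKM plus 1 differed at least 2-fold. At 3Ws against normal, 142 segments were measured, 62 of them were lower and 1 was higher, where 7.89% of all 11103 measured genes were lower and 2.6% higher. The median log2 ratio of the segments was -0.90, and that of all measured genes was -0.24. By locus, 28 of 73 Ighv, 31 of 66 Igkv and 3 of 3 Iglv segments were lower. The 1 segment that was higher was Ighv1-85, which had 2, 14 and 10 reads in the normal, 2Ws and 3Ws libraries and passed at a log2 ratio of 1.01. At 2Ws against normal, 15 of 160 measured segments were higher and 4 were lower, where 1.29% of all measured genes were higher and 1.22% lower. The median log2 ratio was 0.40 for the segments and 0.00 for all measured genes. At 3Ws against 2Ws, 102 of 155 segments were lower and 0 higher, where 7.37% of all measured genes were lower and 2% higher. The median was -1.17 for the segments and -0.21 for all measured genes. These 3 comparisons share libraries and are not independent of each other. The counts depend on the rule, and the 62 lower segments were 100 with a pseudocount of 0.1 FPKM in place of 1 FPKM and 2 at 4-fold.

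Among segments with enough reads, nearly all were lower at 3Ws and most were higher at 2Ws, each against normal. A segment that reached 20 reads in only 1 of the 2 libraries is higher there by this choice, so these counts are partly fixed by it. At 3Ws against normal, 69 segments had at least 20 reads in 1 of the 2 libraries, and 68 of them had a ratio below 1. Of the 69, 68 reached 20 reads in the normal library and 22 at 3Ws, so most had to lie below 1. The interval lay below 1 for 61 of the 69 segments and above 1 for 0, where it lay below 1 for 56.3% and above 1 for 15.8% of all genes with as many reads. Their median ratio of RPM was 0.338, where the median of the 12621 genes with as many reads was 0.781 and 73.4% of those genes lay below 1. At 2Ws against normal, 71 of 90 segments had a ratio above 1 and 19 below 1, with a median of 1.44, and the interval lay above 1 for 33 and below 1 for 2. Of the 90, 68 reached 20 reads in the normal library and 85 at 2Ws. Those that reached it only at 2Ws had to lie above 1. Of the 12740 genes with as many reads, 49.9% had a ratio above 1 and 50.1% below 1, with a median of 1.00, and the interval lay above 1 for 18.3% and below 1 for 18%.

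**Figure D2:**
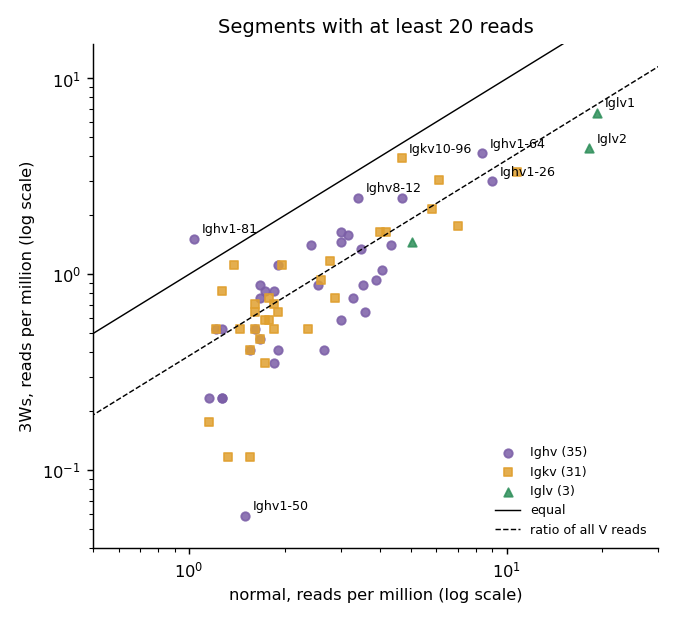
RPM at 3Ws (y axis, log scale) against normal (x axis, log scale) for the 69 segments with at least 20 reads in 1 of these libraries, 1 point per segment, with heavy, kappa and lambda segments marked apart. The solid line marks equal values and the dashed line the ratio of all V reads, 0.384. All points but Ighv1-81 lie below the line of equal values, and Igkv10-96 lies nearest below it among the segments with most reads. Most points reached 20 reads only in the normal library, which by itself places them below that line.

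Among heavy chain segments, Ighv1-26 had the most reads in the normal library and at 2Ws. It belongs to Ighv1, the largest heavy chain family of the mouse. It had 156 reads (25.7 FPKM) in the normal library, 197 (33.9 FPKM) at 2Ws and 51 (8.51 FPKM) at 3Ws. The RPM value was 3.01-fold lower at 3Ws than in the normal library (2.18 to 4.22). Ighv1-19, of the same family, had 75, 103 and 24 reads and was 3.08-fold lower (1.92 to 5.10). Both segments were higher at 2Ws than in the normal library, by 1.32-fold (1.07 to 1.64) and 1.44-fold (1.06 to 1.96).

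Ighv1-64 took the lead at 3Ws. It had 145 reads (20.7 FPKM) in the normal library, 123 (18.4 FPKM) at 2Ws and 71 (10.3 FPKM) at 3Ws. Its share of Ighv reads was 6.69% in the normal library (95% interval 5.68 to 7.83), 4.57% at 2Ws (3.82 to 5.43) and 8.47% at 3Ws (6.68 to 10.6). The 2Ws share was thus apart from both others, whose intervals overlapped. Ighv1-69 had 81, 61 and 42 reads, and Ighv8-12, of the smaller Ighv8 family, had 59, 80 and 42 reads. At 3Ws Ighv8-12 held 5.01% of Ighv reads (3.64 to 6.71), against 2.72% in the normal library (2.08 to 3.50).

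Among kappa segments, Igkv1-117 led in the normal library and at 2Ws and Igkv10-96 at 3Ws. Igkv1-117 had 186 reads (26.6 FPKM), 217 (32.5 FPKM) and 57 (8.26 FPKM) in the normal, 2Ws and 3Ws libraries, and was 3.22-fold lower at 3Ws than in the normal library (2.38 to 4.41). Igkv10-96 had 81 reads (13.0 FPKM), 86 (14.5 FPKM) and 67 (10.9 FPKM), and its interval at 3Ws against normal included no difference (1.19-fold lower, 0.851 to 1.67). Its share of Igkv reads was 8.54% at 3Ws (6.68 to 10.7), against 4.14% in the normal library (3.30 to 5.12) and 3.22% at 2Ws (2.58 to 3.96). Of the other leading kappa segments, Igkv1-110 had 106, 154 and 52 reads, Igkv1-135 had 101, 172 and 37 reads and Igkv4-59 had 122, 145 and 30 reads. Igkv4-59 was the one of these that was lowest at 3Ws relative to normal mice, by 4.01-fold (2.67 to 6.19).

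**Figure D3:**
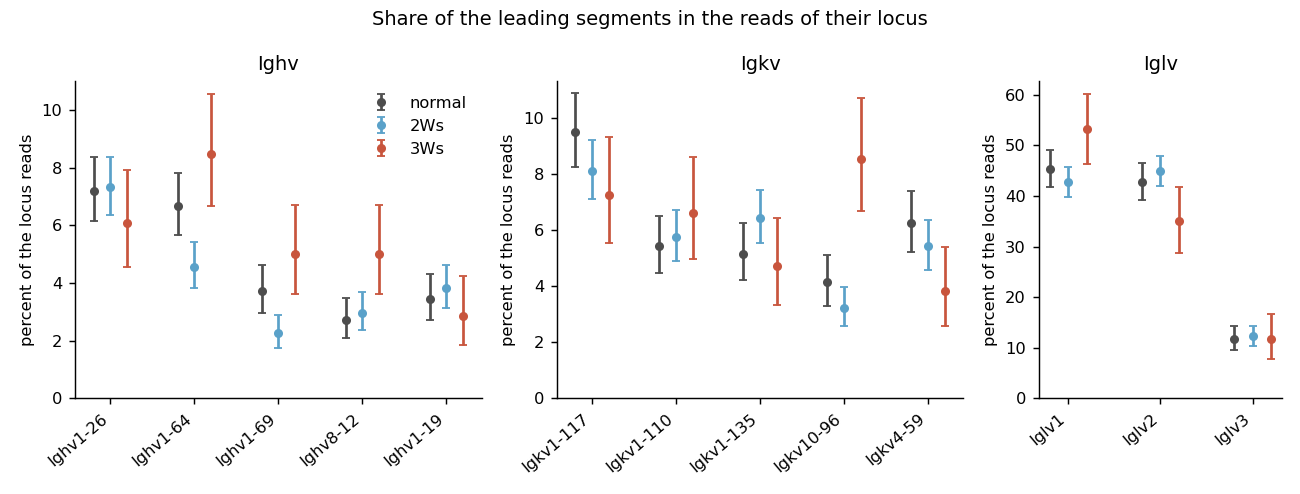
Share of the leading segments in the reads of their locus (y axis, percent) in the normal, 2Ws and 3Ws libraries, with the 5 highest mean shares for the heavy and kappa loci and all 3 lambda segments. Points are values of 1 library and whiskers exact 95% binomial intervals of counting error. Igkv10-96 stands at 8.54% at 3Ws, above 4.14% in the normal library and 3.22% at 2Ws.

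The lambda locus of the mouse has few V segments and usually gives a small part of the light chains. Iglv1 had 334 reads (49.3 FPKM) in the normal library, 466 (72.0 FPKM) at 2Ws and 114 (17.1 FPKM) at 3Ws, Iglv2 had 315 (49.7 FPKM), 490 (80.9 FPKM) and 75 (12.0 FPKM), and Iglv3 had 87 (13.2 FPKM), 134 (21.3 FPKM) and 25 (3.84 FPKM). At 3Ws they were lower than in the normal library by 2.89-fold (2.33 to 3.60) for Iglv1, 4.14-fold (3.21 to 5.40) for Iglv2 and 3.43-fold (2.18 to 5.59) for Iglv3. Reads of Iglv1 per read of Iglv2 were 1.06 in the normal library (0.906 to 1.24), 0.951 at 2Ws (0.836 to 1.08) and 1.52 at 3Ws (1.13 to 2.06). Since the sequences above differ at few bases, this ratio depends on how shared reads were assigned.

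Light chain use moved toward kappa at 3Ws. Igkv reads per Iglv read were 2.66 in the normal library (2.44 to 2.90), 2.45 at 2Ws (2.28 to 2.63) and 3.67 at 3Ws (3.15 to 4.29). The constant regions, which are counted on other exons, gave 2.73, 2.60 and 4.47 Igkc reads per Iglc read, with an interval of 3.64 to 5.54 at 3Ws. In both readouts the 3Ws interval lay above those of the other libraries.

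Segments at the extremes had few reads. Ighv1-50 had 26, 7 and 1 reads in the normal, 2Ws and 3Ws libraries, Igkv10-94 had 27, 31 and 2, and Igkv4-72 had 23, 21 and 2, which were the lowest ratios at 3Ws against normal. At the other end, Ighv1-81 had 18, 21 and 26 reads, and its interval included no difference. At 2Ws against normal, Igkv12-89 was highest with 5, 31 and 7 reads, followed by Ighv1-76 with 6, 35 and 2 reads and Igkv4-86 with 11, 44 and 4 reads. Ighv1-74 fell at 2Ws, with 14 reads at 2Ws against 44 in the normal library, and had 15 at 3Ws. Ighv8-10, an annotated pseudogene, had 42, 26 and 24 reads. Igkv1-122 had 8 reads in the normal library, 22 at 2Ws and 0 at 3Ws, where 0 allows up to 3 reads, and Ighv1-78 had 13, 36 and 2.

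Some V segments mark B-1a cells, an innate-like B cell set of body cavities. Ighv11-2 and Ighv12-3 encode heavy chains that bind phosphatidylcholine, and Igkv14-126 and Igkv4-91 are light chains that pair with them. Together these 4 segments had 88 reads in the normal library, 175 at 2Ws and 26 at 3Ws. They were 2.08-fold higher at 2Ws (1.60 to 2.72) and 3.34-fold lower at 3Ws (2.13 to 5.38) than in the normal library. Ighv11-2 had 22, 52 and 4 reads and Igkv14-126 had 41, 83 and 9. Ighv12-3, with 7, 12 and 2 reads, and Igkv4-91, with 18, 28 and 11 reads, had intervals that included no difference in both comparisons with normal mice. Of 6 other B-1 cell markers, 4 were measured at 3Ws against normal, with 1 higher and 1 lower, and 0 of 5 passed at 2Ws against normal. The 2Ws ratio of all V reads was 1.39 (1.34 to 1.44), and its interval lay below that of these 4 segments, whereas at 3Ws their ratio of 0.300 (0.186 to 0.469) overlapped that of all V reads, 0.384 (0.363 to 0.405).

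Segment use remained broad in every library. Ighv reads fell on 117 segments in the normal library, 111 at 2Ws and 91 at 3Ws. Drawn to the 838 reads of the 3Ws library, the expected numbers were 98.0 in the normal library and 95.3 at 2Ws. The effective number of Ighv segments, the number of equally used segments that would give the same spread, was 39.5, 41.6 and 35.2. Igkv reads fell on 99, 105 and 85 segments, or on 87.3, 90.3 and 85 at 785 reads, with effective numbers of 32.7, 35.2 and 32.4. No segment of either locus held more than 9.51% of its locus. Pseudogenes held 4.57% of Ighv reads in the normal library, 2.86% at 2Ws and 4.42% at 3Ws, and 2.25%, 2.36% and 1.15% of Igkv reads.

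Families that held over 5% of a locus kept similar shares, with some shifts at 3Ws. Ighv1 held 51.1% of Ighv reads in the normal library, 49.5% at 2Ws and 56.1% at 3Ws. Ighv8 held 7.98%, 6.25% and 10.5%, Ighv5 held 11.7%, 10.8% and 7.88%, and Ighv2 held 8.44%, 8.26% and 6.56%. In the kappa locus, Igkv1 held 22.9%, 22.8% and 20.8%, and Igkv4 held 17.0%, 18.0% and 15.3%. Igkv10 held 6.19%, 4.75% and 8.92%, and Igkv3 held 4.40%, 5.13% and 8.28%. Igkv8, Igkv6, Igkv14 and Igkv12 each held between 5.35% and 8.31% in every library. The Igkv3 sum was 86, 137 and 65 reads, and at 3Ws against normal its interval included no difference (1.30-fold lower, 0.934 to 1.83), while the Ighv5 sum of 254, 290 and 66 reads was 3.79-fold lower (2.88 to 5.05).

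Heavy chain reads were also summed by distance from the J segments. Heavy chain segments are numbered within their family in order of distance from the J segments, and the farthest hold mostly Ighv1 and Ighv8 members. The 26 segments 2000 to 2500 kb from the J segments held 24.1% of Ighv reads in the normal library (22.3 to 25.9), 19.4% at 2Ws (17.9 to 20.9) and 31.5% at 3Ws (28.4 to 34.8). The 20 segments within 500 kb held 20.9%, 19.2% and 14.9%. The ratio of 3Ws to normal was 0.513 (0.441 to 0.596) in the far bin and 0.281 (0.228 to 0.343) in the near bin. From 500 to 2000 kb, the ratio was 0.381, 0.375 and 0.337 in the 3 successive bins. The 4 segments beyond 2500 kb had 33, 38 and 30 reads, and their ratio was 0.922 (0.543 to 1.56).

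Part of the far bin was made by 4 segments, Ighv1-64, Ighv8-10, Ighv1-69 and Ighv8-12, which were chosen after their values were seen. They had 327 reads in the normal library, 290 at 2Ws and 179 at 3Ws. They were 1.80-fold lower at 3Ws than in the normal library (1.50 to 2.17). Without them, the other 22 segments of the bin had 195, 231 and 85 reads and were 2.26-fold lower (1.74 to 2.95). Segments nearer than 2000 kb had 1612, 2130 and 544 reads and were 2.92-fold lower (2.65 to 3.22). The interval of the far bin without these 4 segments overlapped that of the nearer segments. With the segments beyond 2500 kb added to those 22, the reads were 228, 269 and 115. Together these were 1.95-fold lower (1.55 to 2.47), an interval that did not overlap that of the nearer segments. In the kappa locus no such order was seen, where the ratio of 3Ws to normal ranged from 0.293 at 2500 to 3000 kb to 0.577 within 500 kb.

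**Figure D4:**
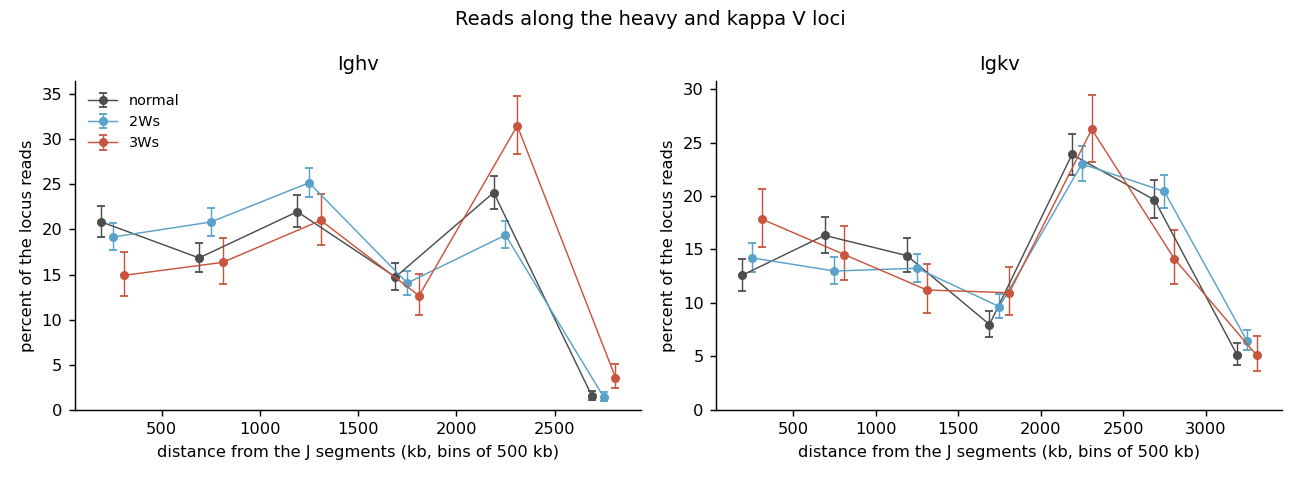
Share of the reads of the heavy (left) and kappa (right) locus (y axis, percent) by distance from the J segments in bins of 500 kb (x axis, kb) in the normal, 2Ws and 3Ws libraries. Points are values of 1 library, drawn slightly apart within a bin, and whiskers are exact 95% binomial intervals of counting error. In the heavy locus the bin at 2000 to 2500 kb holds 31.5% at 3Ws, against 24.1% in the normal library and 19.4% at 2Ws.

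B cell markers were set beside the V segments. Of 17 measured B cell markers, 14 were at least 2-fold lower at 3Ws than in the normal library and 0 were higher, with a median log2 ratio of -1.66. At 2Ws, 0 of 18 passed in either direction, with a median of 0.41. Cd79a, which carries the signal of the B cell receptor, had 1722 reads in the normal library, 2271 at 2Ws and 332 at 3Ws. The RPM value was 5.11-fold lower at 3Ws than in the normal library (4.54 to 5.77). Ms4a1, which encodes CD20, had 2022, 3102 and 392 reads. Cd37, a tetraspanin that other leukocytes also carry, had 9612, 9916 and 9622 reads. V reads per Cd79a read were 2.82 in the normal library, 2.84 at 2Ws and 5.53 at 3Ws, so that the 3Ws value was 1.96-fold higher than that of normal mice (1.72 to 2.23). All 18 B cell markers had reads in every library and summed to 410, 527 and 213 FPKM in the normal, 2Ws and 3Ws libraries. In reads their sum was 1.79-fold lower at 3Ws than in the normal library, a smaller difference than the 2.61-fold of all V reads. Without Cd37, a choice made after its values were seen, they summed to 253, 356 and 52.8 FPKM and were 4.61-fold lower in reads, a larger difference than that of the V reads. The order of V segments and marker sum thus turns on this gene. Of 12 neutrophil markers, 3 were at least 2-fold higher and 2 lower at 3Ws against normal. The B cell markers moved with the V segments, and their part in the V results was not tested.

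The heavy chain constant regions differed from each other at 3Ws, also within IgG. Ighm, the constant region of IgM, had 9867 reads in the normal library, 11350 at 2Ws and 2387 at 3Ws. The RPM value was 4.07-fold lower at 3Ws than in the normal library (3.90 to 4.26). Ighd, of IgD, had 817, 869 and 256 reads, and Ighg3, of IgG3, had 146, 223 and 34. Igha, of IgA, had 455, 866 and 377 reads and was 1.19-fold lower at 3Ws than in the normal library (1.04 to 1.37). Ighg2c had 44, 48 and 79 reads and was 1.82-fold higher at 3Ws (1.24 to 2.70). Ighg2b had 67, 92 and 76 reads and Ighg1 had 14, 10 and 24, and their intervals at 3Ws against normal included no difference. Ighm held 73.8% of heavy constant reads at 3Ws (72.3 to 75.3), against 86.5% in the normal library (85.8 to 87.1), while Igha held 11.7% (10.6 to 12.8) against 3.99% (3.64 to 4.36) and the Ighg genes together 6.59% (213 of 3233 reads) against 2.37% (271 of 11412 reads). Ighv reads per heavy constant read were 0.259 at 3Ws, against 0.190 in the normal library. The light chain constant regions were all lower at 3Ws than in the normal library: Igkc had 1488, 1999 and 501 reads, Iglc1 had 211, 244 and 44, Iglc2 had 287, 450 and 55 and Iglc3 had 48, 76 and 13.

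**Figure D5:**
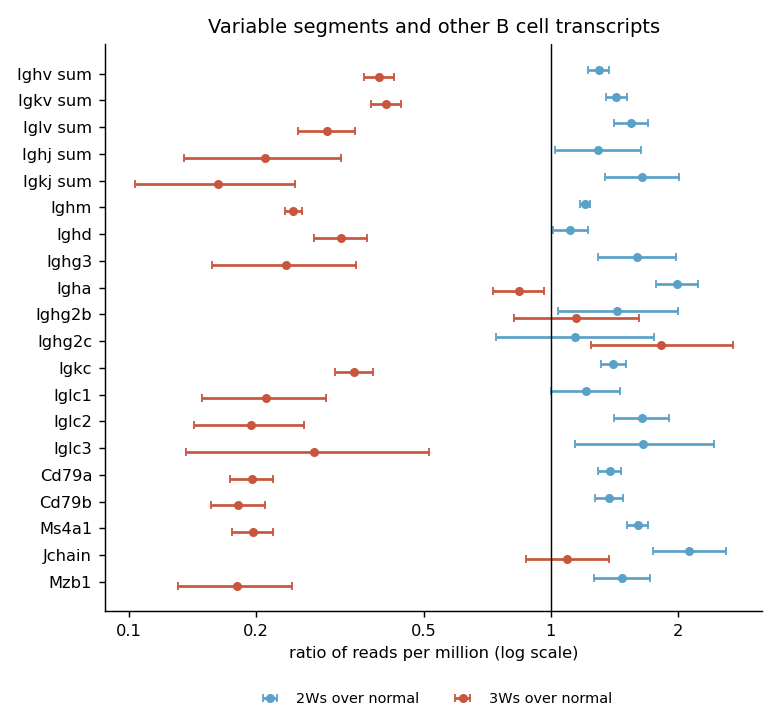
Ratio of RPM to normal mice (x axis, log scale) at 2Ws and at 3Ws for V and J sums, constant regions and other genes of B and plasma cells (y axis). Points are ratios of single libraries and whiskers exact 95% intervals of counting error, and the vertical line marks no difference. The 3Ws ratio was 0.392 for Ighv and 0.407 for Igkv, against 0.245 for Ighm, while the 3Ws intervals of Ighg2b and Jchain include 1 and the 3Ws interval of Ighg2c lies above it.

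J segments, which recombination joins to V in 1 exon, had fewer reads. Ighj segments summed to 135 reads in the normal library, 167 at 2Ws and 28 at 3Ws, and Igkj segments to 162, 254 and 26. They were 4.75-fold (3.14 to 7.42) and 6.14-fold (4.04 to 9.68) lower at 3Ws than in the normal library. These intervals did not overlap those of the V sums of the same locus.

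Genes of antibody secretion went in different directions at 3Ws. Jchain, which links IgM and IgA into polymers, had 153 reads in the normal library, 311 at 2Ws and 165 at 3Ws, and Prdm1, the plasma cell regulator, had 61, 68 and 57. Xbp1, a regulator of the secretory pathway that is not limited to plasma cells, had 3668, 2822 and 6741 reads, while Mzb1, a chaperone of B and plasma cells, was 5.55-fold lower at 3Ws than in the normal library (4.11 to 7.63). Of 10 plasma cell markers 5 were measured, of which 3 were at least 2-fold lower at 3Ws and 0 higher, and at 2Ws 0 passed in either direction. The 3 lower were Mzb1, Irf4 and Txndc5. Irf4 had 580, 604 and 112 reads and was 5.10-fold lower at 3Ws (4.16 to 6.31), and Txndc5 was 3.53-fold lower (2.97 to 4.20). Prdm1 was below 1 FPKM in every library and was not among the measured genes. The part of the plasma cell markers in the V results was not tested. Rag1, which cuts the loci for recombination, had 17, 45 and 0 reads, and its partner Rag2 had 0, 6 and 0. The 0 reads of Rag1 at 3Ws allow up to 3 reads. Vpreb3, listed with the surrogate light chain genes of immature B cells, had 14, 20 and 7 reads. Of the same list, Igll1 had 0, 1 and 1 reads, Vpreb1 had 0, 1.08 and 0, and Vpreb2 had 0 in every library.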

How the data were processed

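The authors sequenced 1 RNA library per condition, and the submitters' processing notes name HISAT2 2.1.0, Bowtie2 2.2.3 and GRCm38. Each deposited table gives FPKM by Ensembl gene. For the annotation release, the use of strand and reads with several matches, the sources used here give nothing. Genes were named with GENCODE M21. Read numbers were obtained by multiplying FPKM by exon length and by the library total at which the products become whole. Of 23378 genes above 0, 88.6% were whole within 0.001 in all libraries, and the recovered reads sum to 106% of the total in each library. All segments were whole.

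RPM ratios, levels and shares carry exact 95% binomial (Clopper-Pearson) intervals. V reads per read of another gene were compared with a normal interval on the log ratio. All cover counting error only, and PCR copies cannot be told apart. No model was fitted, since each condition has 1 library. Calls used log2 of FPKM plus 1, at least 1 FPKM in 1 of the 2 libraries and 2-fold. Named segments were, per locus, the 5 with the highest mean share, per comparison the 3 highest and 3 lowest ratios among segments with at least 20 reads, all Iglv segments and the B-1a segments. Ighv1-85 and Cd37 were singled out after their values were seen. Members and lists were chosen with earlier results of these data known. Alternatives were pseudocounts of 0.1 and 0.5, a minimum of 5 FPKM, no minimum, a 4-fold rule, centring on the median of all genes, values relative to Actb and leaving out single segments. Sequences are from GENCODE M21 transcripts. Calculations used Python 3.11.15, scipy 1.17.1, numpy 2.4.6, matplotlib 3.10.9 and pandas 2.3.3. The recovery of library totals and reads and the 2-fold calls were tested on simulated data, in which every gene had whole reads. Intervals, shares and sums by distance were not part of that test.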

Additional observations from a re-analysis of the deposited data

Results flagged for a closer look

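Several values lay above normal mice at 2Ws and below them at 3Ws, each beyond counting error. Of the segments below, Igkv1-122 and Ighv1-78 were named for ratios of 3Ws to 2Ws among the lowest, a choice that favours this pattern. The comparisons share the normal library, the difference between them was not tested, and no condition has a replicate. Ratios of RPM are given for 2Ws over normal mice and then for 3Ws over normal mice. For sums they were 1.39 and 0.384 for all V reads, 1.30 and 0.392 for Ighv, 1.43 and 0.407 for Igkv, and 1.55 and 0.295 for Iglv.

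Among heavy chain segments the ratios were 1.32 and 0.332 for Ighv1-26, 1.44 and 0.325 for Ighv1-19, 2.90 and 0.156 for Ighv1-78, and 2.47 and 0.184 for Ighv11-2. Among kappa segments they were 1.52 and 0.498 for Igkv1-110, 1.78 and 0.372 for Igkv1-135, 2.12 and 0.223 for Igkv14-126, and 2.88 and 0 for Igkv1-122, which had 0 reads at 3Ws. Among lambda segments they were 1.46 and 0.346 for Iglv1, 1.63 and 0.242 for Iglv2, and 1.61 and 0.292 for Iglv3.

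Among constant regions they were 1.20 and 0.245 for Ighm, 1.11 and 0.318 for Ighd, 1.60 and 0.236 for Ighg3, 1.99 and 0.841 for Igha, 1.41 and 0.342 for Igkc, 1.21 and 0.212 for Iglc1, 1.64 and 0.194 for Iglc2, and 1.66 and 0.275 for Iglc3.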

How the results depend on the processing

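No direction turned under any alternative run, 118 values stayed within their limits and 29 moved. Some of the 118 could not move and say nothing on robustness. All segments were whole, Iglv has no pseudogenes to leave out, and the 3Ws library was drawn to its own read number. Dropping the minimum of 1 FPKM could also change no count, since below it FPKM plus 1 cannot differ 2-fold. Over all genes that reached 1 FPKM in both libraries, the median log2 ratio was -0.18 for 3Ws to normal, 0.00 for 2Ws to normal and -0.16 for 3Ws to 2Ws. Centred on it, the 3Ws ratios were 0.456 (Ighv) and 0.474 (Igkv) against normal and 0.345 and 0.325 against 2Ws. Relative to Actb, the 2Ws ratios against normal were 1.39 (Ighv) and 1.53 (Igkv). Without Iglv1, the Iglv ratio of 3Ws to 2Ws was 0.155. Alternatives chosen after seeing the data gave, for Ighv, 1.42 at 2Ws against normal without segments at least 95% identical to another, and 0.266 at 3Ws against 2Ws without Ighv1-64, Ighv8-10, Ighv1-69 and Ighv8-12. The sum of all B cell markers gave 0.557 at 3Ws and 1.29 at 2Ws against normal and 0.433 at 3Ws against 2Ws, and without Cd37, also chosen then, 0.217, 1.44 and 0.150. The 3Ws ratio of all V reads, 0.384, lies between both values.

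Counts of segments past the rule moved most, and fewer pass a stricter rule by its construction. At 3Ws against normal, the 1 higher segment became 3 with a pseudocount of 0.1, 2 with 0.5, 2 after centring, 0 at 5 FPKM and 0 at 4-fold. The 62 lower became 100 with 0.1, 43 after centring, 26 at 5 FPKM and 2 at 4-fold. At 2Ws against normal, the 15 higher became 36 with 0.1, 27 with 0.5, 7 at 5 FPKM and 0 at 4-fold, and the 4 lower became 1 at 5 FPKM and 0 at 4-fold. At 3Ws against 2Ws, the 0 higher became 1 with 0.1, and the 102 lower became 78 after centring, 53 at 5 FPKM and 20 at 4-fold. No paired analysis was possible because each condition has 1 library. Depth limits single segments, since 22 had at least 20 reads at 3Ws, and differences within their intervals were not detectable at this depth.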
